A study of Mus musculus with 8 samples.

Results

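Chromatin accessibility was examined at 9 genes that mark astrocytes and cells of the oligodendrocyte lineage, in the mouse line SN4741. The genes were taken as a given list, which held Gfap and Aqp4 of astrocytes, Olig1 and Cspg4 of oligodendrocyte precursors, Mbp and Mog of myelin, and Hdac11, Ptgds and Il33. The last 3 were named as oligodendrocyte genes by the study from its own RNA data on this line, so they were no independent choice. The list made up 9 of the 21938 protein-coding genes of GENCODE mouse release M21. For each gene the window was the gene body and 20 kb on each side on the build mm10, and the 9 windows held 91 of the 84777 consensus regions. A consensus region was a stretch of merged peaks that at least 2 of the 8 libraries called.

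The 8 libraries came from ATAC-seq by the Omni-ATAC protocol, in which a transposase inserts adapters into open DNA, on aliquots of 50000 cells. SN4741 is a clonal line from embryonic mouse substantia nigra, labelled as wild-type neural precursor cells, and all 8 libraries carried its temperature-sensitive T antigen, which is driven by a tyrosine hydroxylase promoter. The study describes the line as polyploid and unstable in karyotype, which limits it as a model. In 4 libraries the cells had grown at 37 °C in 10% fetal bovine serum, and in 4 the medium was changed 24 hours after passage and the cells were kept at 39 °C in 0.5% serum for 48 hours. Temperature and serum cannot be told apart in this design. No label says that the aliquots of a group came from separate cultures, so p-values measure the spread between these libraries, which may be technical.

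Astrocytes are the glial cells that support synapses and the blood-brain barrier. They build their intermediate filaments from GFAP and take up water through the channel aquaporin-4. Oligodendrocytes wrap axons in myelin and arise from dividing precursors that express the transcription factor OLIG1 and the proteoglycan NG2, the product of Cspg4. Myelin basic protein and myelin oligodendrocyte glycoprotein are made once these cells mature. A gene that a cell can transcribe usually has open chromatin at its start site, while distal open regions often hold enhancers. An open start site alone does not show that a gene is transcribed.

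The libraries differed in depth and in the length of their peak lists. The peak caller kept 49.8 to 169 M fragments (M for mega) per library at 37 °C and 52.7 to 71.2 M at 39 °C, and the lists held 74026 to 92013 and 54845 to 68410 peaks. Replicates 1 and 4 at 37 °C were the deepest, with 169 and 158 M, and replicate 4 at 39 °C had the shortest list. The files give no reads per region, so accessibility was read from whether a peak was called, from its width, and from its rank. The rank is the percentile of the peak's −log10 q-value within its own list, 100 being the strongest peak. In such bulk material, fewer cells with an open region and less opening per cell cannot be told apart.

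Most of the glial windows held fewer called regions at 39 °C than at 37 °C. Of the 91 regions, 42 (46.2%) were called by more libraries at 37 °C, 1 by more at 39 °C and 48 by as many. Over all consensus regions, 37.9% were called by more libraries at 37 °C and 5.46% by more at 39 °C. All 8 libraries called 48 of the 91 regions (52.7%), close to the 52.9% of all consensus regions. A further 15 regions in the windows were called by a single library and left out. They made up 14.2% of the 106 merged regions there, against 13.6% in the genome. Of these 15, 9 came from 37 °C replicate 4 and 3 from replicate 1.

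The number of regions called per library did not overlap between the temperatures for 6 of the 9 genes, and in all 6 it was lower at 39 °C. In the Gfap window, 10 regions were called in each of the 4 libraries at 37 °C, and 6, 6, 6 and 3 in replicates 1 to 4 at 39 °C. The Mbp window held 23, 20, 19 and 23 at 37 °C and 16, 15, 17 and 14 at 39 °C. The Cspg4 window held 18, 20, 16 and 19 at 37 °C and 15, 15, 15 and 12 at 39 °C. In these 3 windows every library at 37 °C lay above every library at 39 °C. The Ptgds window held 14, 9, 9 and 14 at 37 °C and 6, 6, 7 and 7 at 39 °C, and the high values were those of the 2 deep libraries. The Hdac11 window held 11, 9, 10 and 11 at 37 °C and 7, 7, 8 and 7 at 39 °C. The small Olig1 window held 2 in each library at 37 °C and 1 in each at 39 °C.

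The other windows did not separate the temperatures. Each library called 3 regions in the Mog window. In the Aqp4 window 2 regions were called by the 2 deep libraries at 37 °C and 1 by the other 6 libraries. The Il33 window held 6, 5, 5 and 5 regions at 37 °C and 6, 6, 5 and 4 at 39 °C, so that the groups overlapped. For the 6 separated genes the exact permutation test, two-sided, gave p = 0.0286, the smallest that 4 libraries against 4 allow, and the adjusted p over 18096 protein-coding genes with a region in the window was 0.108. Over those genes, 26.2% were lower at 39 °C in this sense and 0.265% were higher. Windows rich in regions separated more often. Of the 3283 genes with at least 10 regions, 57% were lower at 39 °C, as were all 5 members of that size. When every list was shortened to its 54845 strongest peaks, 2 of the 9 windows were lower at 39 °C in every library, and over all 17514 coding genes with a region at that length 8.78% were lower and 2.81% higher.

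**Figure D1:**
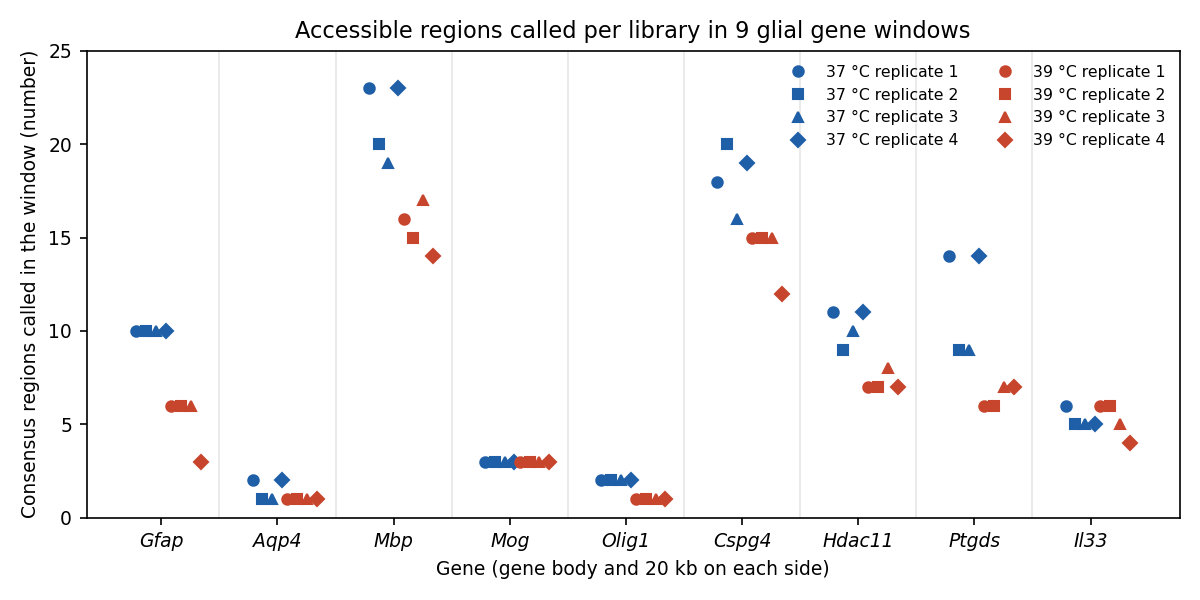
Number of consensus regions called in the window of each gene, 1 point per library, with 37 °C in blue and 39 °C in red and the replicate shown by the marker. The Gfap window went from 10 in every library at 37 °C to 3 to 6 at 39 °C, while the Mog window held 3 in all 8 libraries.

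Of the 91 regions, 8 were called in all 4 libraries at 37 °C and in none at 39 °C, and 0 were called the other way round. They made up 8.79% of the member regions, against 6.04% of all consensus regions, and 0.314% of all consensus regions were restricted to 39 °C. In the Gfap window 4 such regions were found, and 1 each in the windows of Olig1, Mbp, Ptgds and Hdac11. These were weak peaks: their percentiles ran from 0.259 to 43.4 in the lists at 37 °C. Fisher's exact test gave p = 0.0286 for each, and no consensus region passed after adjustment over all of them (smallest adjusted p = 0.450). Among the 6 libraries with under 100 M fragments, the 37 °C libraries had 64.2 and 49.8 M. There 11 member regions were restricted to 37 °C, including these 8, and 1 to 39 °C. Without 37 °C replicate 3 there were 13 restricted to 37 °C, and without 37 °C replicate 1 there was 1 restricted to 39 °C. With fewer libraries the rule is looser, so that these 8 stayed is no check on depth. The shares of all consensus regions were not computed for these subsets.

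The sequences around the summits of 4 of these regions, at most 1 a gene, and of the 1 region with the opposite pattern are given because the calls at the 2 temperatures differed there. They are from RefSeq's mm10 sequence (GRCm38), forward strand, and capitals mark matches to the searched motifs. The motifs, written for either strand, were TGANTCA for AP-1, GGAATG for TEAD, TTCNNNGAA for STAT, TTGGCA for NFI, ACAATG and ACAAAG for SOX factors and CAGCTG for an E-box. The Olig1 stretch (chr16:91270194-91270394) lies in the coding exon. The Gfap stretch (chr11:102898488-102898688) lies in an intron of the gene body, upstream of the coding starts. The Hdac11 stretch (chr6:91162354-91162554) is intronic, the Ptgds stretch (chr2:25473135-25473335) upstream and the Il33 stretch (chr19:29972315-29972515) downstream of its gene.
Olig1, exon: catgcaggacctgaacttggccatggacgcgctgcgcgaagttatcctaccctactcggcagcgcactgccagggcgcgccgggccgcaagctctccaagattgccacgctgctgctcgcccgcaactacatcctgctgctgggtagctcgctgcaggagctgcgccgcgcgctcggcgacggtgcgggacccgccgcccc
Gfap, intron: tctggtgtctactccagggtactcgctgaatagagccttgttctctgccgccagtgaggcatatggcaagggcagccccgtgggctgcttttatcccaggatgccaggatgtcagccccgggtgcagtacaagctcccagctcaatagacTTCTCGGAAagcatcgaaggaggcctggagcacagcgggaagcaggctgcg
Hdac11, intron: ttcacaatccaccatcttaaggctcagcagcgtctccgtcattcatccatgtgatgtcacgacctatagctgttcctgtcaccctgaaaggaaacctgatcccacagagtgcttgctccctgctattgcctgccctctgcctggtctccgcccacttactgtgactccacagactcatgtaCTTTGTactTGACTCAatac
Ptgds, upstream: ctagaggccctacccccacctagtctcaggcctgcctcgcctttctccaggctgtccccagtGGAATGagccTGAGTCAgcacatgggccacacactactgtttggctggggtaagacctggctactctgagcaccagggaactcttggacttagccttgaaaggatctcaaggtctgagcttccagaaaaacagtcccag
Il33, downstream: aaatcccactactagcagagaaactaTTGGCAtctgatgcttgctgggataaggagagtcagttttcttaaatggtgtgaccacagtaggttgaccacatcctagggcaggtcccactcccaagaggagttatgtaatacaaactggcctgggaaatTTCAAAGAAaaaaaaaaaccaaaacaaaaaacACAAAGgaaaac

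The Olig1 stretch is 69.7% G and C and held no match to the motifs searched. The Hdac11 and Ptgds stretches each held an AP-1 match, TGACTCA and TGAGTCA, and so did the restricted Mbp region, which makes 3 of the 8 restricted regions. An AP-1 match lay within 100 bases of the summit in 29.0% of all consensus regions and in 32 of the 91 member regions (35.2%). The Ptgds stretch also held a TEAD match, found in 16.9% of all consensus regions, and the Hdac11 stretch the second SOX form, found in 15.9%. The Gfap and Il33 stretches held a STAT match, which was found in 6.08% of all consensus regions, in 7 of the 91 member regions and in 1 of the 8 restricted regions. The other 3 restricted regions of the Gfap window held no match to the motifs searched. The Il33 stretch also held an NFI match, which 14.1% of all consensus regions held, and the second SOX form. The E-box letters were held by 15.3% of all consensus regions and by 14 of the 91 member regions. The first SOX form was held by 10.4% of all consensus regions and by 3 of the 91. A match describes the letters and not binding.

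Start sites were examined next, a promoter peak being one within 1 kb of any annotated start site of the gene. All 8 libraries called a promoter peak for 6 of the 9 genes, namely Gfap, Aqp4, Mbp, Cspg4, Hdac11 and Ptgds. Il33 had one in 4 libraries at 37 °C and 3 at 39 °C, Olig1 in 4 and 0, and Mog in none. Of all protein-coding genes, 59.9% had a promoter peak in all 8 libraries and 31.3% in none. Fewer libraries called one at 39 °C for 7.97% of them and more for 0.47%. Several of the 6 owed their peak to a minor or noncoding start site, so the start sites are described one by one.

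Gfap (chr11:102887336-102900912, minus strand) encodes the filament protein that defines astrocytes. Its coding transcripts start at 102897131 to 102897200, and there a peak was called in 37 °C replicate 1 and in no other library. The promoter peak of all 8 libraries lay further upstream, at the start of the noncoding transcript Gfap-203 (chr11:102900365-102905341). Its percentiles were 78.0, 75.9, 74.2 and 80.0 in replicates 1 to 4 at 37 °C and 70.3, 68.2, 70.6 and 65.4 at 39 °C, with every library at 37 °C above every library at 39 °C. Its summed peak width was 4556 ± 481 bp at 37 °C and 2005 ± 907 bp at 39 °C (SD over 4 libraries each), again without overlap.

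Inside the gene a restricted region covered an exon (chr11:102892853-102894028), with percentiles of 29.1, 10.3, 6.36 and 33.0 at 37 °C. A narrower one (chr11:102898311-102898877) was at 1.30, 0.259, 8.33 and 9.59, close to the threshold of the peak caller. It lay in an intron of the annotated gene body but upstream of the coding starts, 1111 bp from that of Gfap-202. It thus fell just outside the promoter distance of 1 kb. The last pair, at chr11:102905807-102909661 and chr11:102911303-102916212, lay upstream of Gfap inside Kif18b, a kinesin gene, so they cannot be assigned to Gfap. None of the 4 was called at 39 °C, and none had a peak in any list when each was shortened to its 54845 strongest peaks. A region in an exon near the 3′ end (chr11:102887265-102888853) was stronger, at 46.8, 41.3, 40.4 and 53.6 at 37 °C and 11.9, 9.04 and 10.8 in replicates 1 to 3 at 39 °C. Replicate 4 did not call it, and at equal list lengths it was restricted to 37 °C.

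Olig1 (chr16:91269772-91271933) encodes a basic helix-loop-helix factor of the oligodendrocyte lineage and has 1 annotated transcript. The peak near its start (chr16:91269874-91270792), whose summit lay 522 bp inside the gene, was called in all 4 libraries at 37 °C and in none at 39 °C. Its percentiles were 12.4, 4.15, 26.8 and 25.4, and the highest belonged to replicate 3, the library with the fewest fragments. Among protein-coding genes 1.46% showed this pattern, and none passed adjustment (Fisher's exact test, p = 0.0286 and adjusted p = 1). With −log10 q of at least 5 the peak remained in 3 libraries at 37 °C, and with lists of equal length in 1. The other region of the window (chr16:91280562-91281027), 10.97 kb downstream of the start, was called in all 8 libraries at percentiles of 22.6 to 46.6 at 37 °C and 17.5 to 42.6 at 39 °C, so the groups overlapped.

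Cspg4 (chr9:56865033-56899870) encodes NG2, a surface proteoglycan of oligodendrocyte precursors and pericytes. The peak at its coding start (chr9:56863175-56868953) was in all 8 libraries, at percentiles of 75.7, 74.3, 70.3 and 78.0 at 37 °C and 66.8, 66.2, 66.2 and 54.5 at 39 °C. The groups did not overlap, and replicate 4 at 39 °C lay lowest. This region also lay within 1 kb of a start site of the neighbouring gene Odf3l1, so it cannot be assigned to Cspg4 alone. Another region in an intron (chr9:56876438-56878030) had a mean percentile of 62.6 ± 1.98 at 37 °C and 38.2 ± 4.57 at 39 °C (SD over 4 libraries each). At 2 internal starts of noncoding transcripts peaks within 1 kb were called at 37 °C alone, in 3 libraries at Cspg4-203 and in 2 at Cspg4-204. Beside Cspg4-203 lay a broader region (chr9:56888716-56892481) that all 8 libraries called, at percentiles of 67.4, 67.4, 63.1 and 70.4 at 37 °C and 55.6, 51.3, 55.2 and 46.8 at 39 °C, without overlap. The strongest distal region, 49.1 kb downstream of the start (chr9:56913218-56916536), held percentiles of 86.0 to 89.3 at 37 °C and 83.5 to 86.8 at 39 °C.

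**Figure D2:**
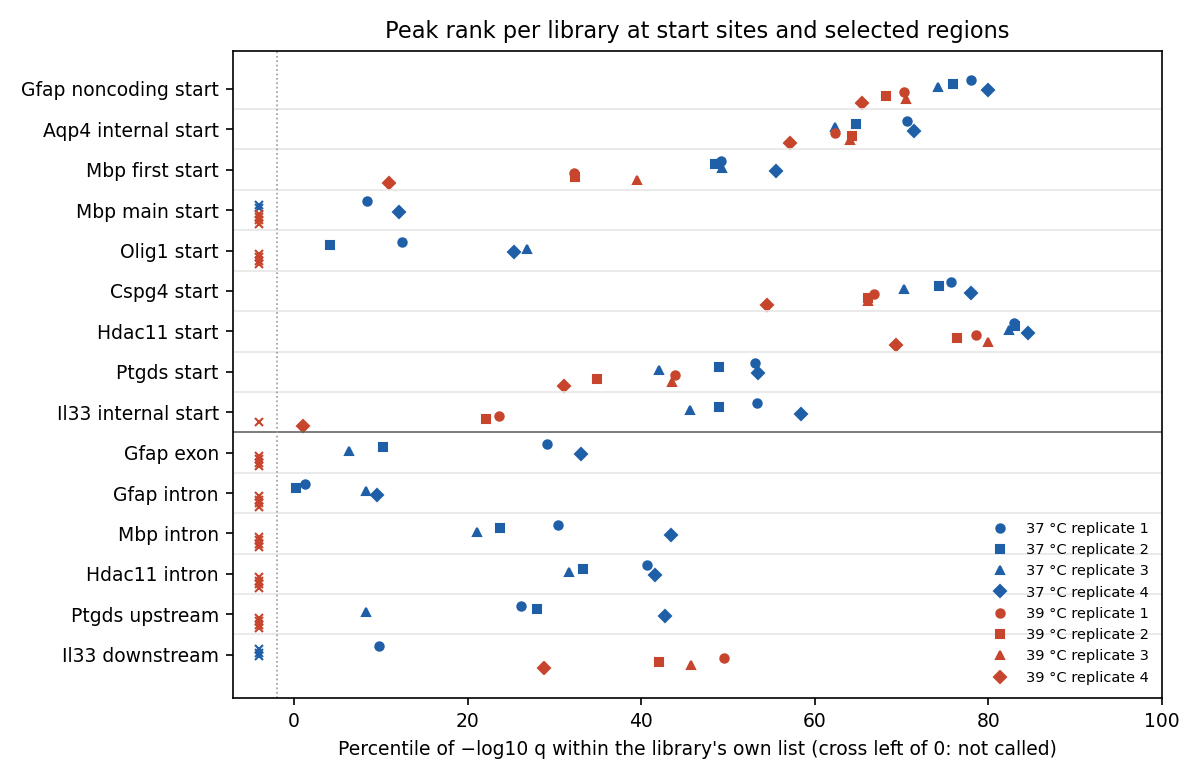
Percentile of −log10 q within each library's own list (horizontal axis), 1 point per library with 37 °C in blue and 39 °C in red, at start sites (above the dark line) and at other regions of the text (below it), and a cross at the left where the library called no peak. The Olig1 start and 5 of the lower regions have points for 37 °C and crosses for 39 °C, and the Il33 downstream region has 4 red points between 28.8 and 49.6 and 1 blue point at 9.74.

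Hdac11 (chr6:91156665-91174692) encodes a histone deacetylase that is abundant in mature oligodendrocytes. Its coding start (chr6:91155457-91157671) had a strong peak in all libraries, at percentiles of 83.0, 83.1, 82.4 and 84.6 at 37 °C and 78.5, 76.4, 79.9 and 69.4 at 39 °C. A weaker peak at the internal noncoding start Hdac11-207 (chr6:91164718-91166127) was at 56.5, 53.5, 47.5 and 52.6 at 37 °C and at 24.4, 32.4, 16.4 and 26.2 at 39 °C. In both the groups did not overlap. The restricted region (chr6:91161645-91162725), 5.79 kb into the gene in an intron, had percentiles of 40.6, 33.3, 31.7 and 41.5 at 37 °C. Of the 8 restricted regions it was the 1 that stayed restricted to 37 °C both with −log10 q of at least 5 and with lists of equal length. At equal lengths 2.67% of all consensus regions were restricted to 37 °C and 1.92% to 39 °C.

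Ptgds (chr2:25466709-25470046, minus strand) encodes lipocalin-type prostaglandin D synthase, which is abundant in leptomeninges and oligodendrocytes. The peak over its start sites (chr2:25467747-25471056) was in all 8 libraries, at 53.2, 49.0, 42.0 and 53.4 at 37 °C and 44.0, 34.9, 43.6 and 31.1 at 39 °C, and the groups overlapped. The region at its 3′ end (chr2:25465003-25467509) was at 54.4, 52.5, 46.3 and 60.6 at 37 °C and at 21.8, 20.3, 28.0 and 17.5 at 39 °C. The mean difference of -31.5 points was the lowest of the 48 member regions called in all libraries. The restricted region 3.19 kb upstream (chr2:25472623-25474339) had 26.2, 28.0, 8.33 and 42.8 at 37 °C, and with equal list lengths it was left in replicate 4 alone. The window is crowded, with Abca2, Paxx and Clic3 as coding neighbours, and 2 of its regions were promoters of other genes. Of its 14 regions, 8 were called by fewer libraries at 39 °C than at 37 °C, and 4 of these by replicates 1 and 4 alone at 37 °C.

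Il33 (chr19:29925114-29960718) encodes an alarmin cytokine that is held in nuclei of glial and other cells. No library called a peak at its first start site or at Il33-203. The peak at the start of Il33-201 (chr19:29945157-29946813) had percentiles of 53.3, 49.0, 45.6 and 58.5 at 37 °C and 23.6, 22.1 and 0.973 in replicates 1, 2 and 4 at 39 °C, while replicate 3 called none. A region 47.3 kb downstream of the start, past the end of the gene (chr19:29971886-29973033), went the other way. It was called in all 4 libraries at 39 °C, at 49.6, 42.1, 45.7 and 28.8, and at 37 °C in replicate 1 alone, at 9.74. At equal list lengths it was called by the 4 libraries at 39 °C and by 0 at 37 °C. It was the 1 member region called by more libraries at 39 °C, and it was singled out after its values were seen. Of all consensus regions, 1.23% were called by at least 3 more libraries at 39 °C.

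**Figure D3:**
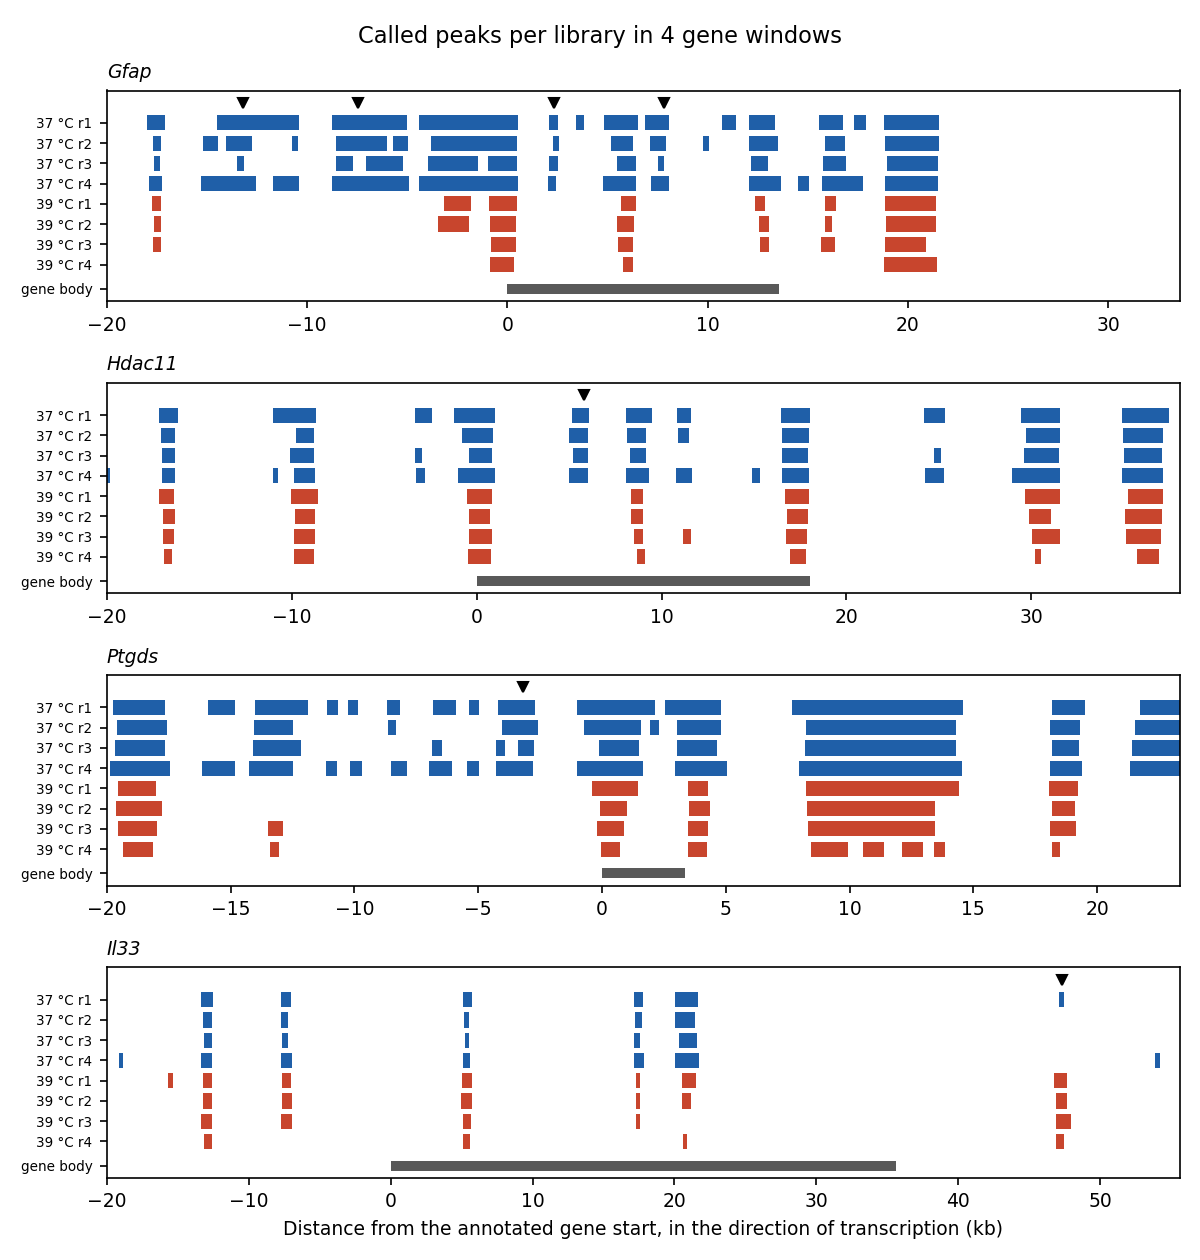
Called peaks in the windows of Gfap, Hdac11, Ptgds and Il33, drawn as bars by distance from the annotated gene start in the direction of transcription (kb), 1 row per library (r for replicate) with 37 °C in blue and 39 °C in red, and the gene body in grey. Black triangles mark the regions called in all 4 libraries at 37 °C and none at 39 °C, and in the Il33 map the region 47.3 kb from the start called in 4 libraries at 39 °C and 1 at 37 °C.

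Mbp (chr18:82475146-82585637) encodes the protein that compacts myelin, and its longest transcripts, which start far upstream, encode the golli proteins found also outside mature oligodendrocytes. The peak at this upstream start (chr18:82474613-82475936) was in all 8 libraries, at 49.2, 48.5, 49.3 and 55.6 at 37 °C and 32.3, 32.4, 39.6 and 10.96 at 39 °C, without overlap. At the start shared by 11 transcripts of the myelin form, at 82554470 to 82554580, the 2 deep libraries at 37 °C called a weak peak at 8.36 and 12.1, and the other 6 libraries called none. The restricted region (chr18:82563929-82565363), near the noncoding start Mbp-214, had 30.4, 23.7, 21.1 and 43.4 at 37 °C. It stayed restricted with −log10 q of at least 5 and was left in 1 library with equal list lengths.

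Most of the regions called in the Mbp window were intronic, and 13 of the 23 were called in all 8 libraries. The strongest of all member regions lay in an intron 47.7 kb from the first start (chr18:82521462-82523857), at 94.3 to 96.9 at 37 °C and 95.5 to 96.4 at 39 °C. This was among the strongest peaks of every list, and the groups overlapped. An intronic region at chr18:82531766-82532734 ranked lower at 39 °C, at 37.7, 31.8, 45.3 and 26.2 against 61.7, 61.3, 51.8 and 65.6.

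Aqp4 (chr18:15389496-15410982, minus strand) encodes the water channel of astrocyte endfeet, and Mog a surface protein of the outer myelin sheath. No library called a peak at the cluster of 6 Aqp4 transcripts at 15410929 to 15410982, or at the start of Aqp4-201. The peak of all 8 libraries lay at an internal coding start (chr18:15406700-15409669), at 70.6, 64.8, 62.4 and 71.4 at 37 °C and 62.3, 64.3, 64.1 and 57.2 at 39 °C, so the groups overlapped. Mog (chr17:37010743-37023398) had no peak at its start. Its window held 3 regions, all called in all 8 libraries, and 1 was the promoter of another gene. The strongest of the others (chr17:37028170-37029555), 5.54 kb upstream, had percentiles of 83.4 to 86.1 at 37 °C and 74.6 to 81.1 at 39 °C.

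For the 48 member regions called in all 8 libraries the direction of the rank depended on what the peaks were ranked against. Ranked within the whole list, 33 regions (68.8%) were higher in every library at 37 °C and 0 higher in every library at 39 °C. Over all 44861 regions called by all libraries the shares were 54.2% and 0.798%. Without 39 °C replicate 4, 2 member regions were higher in every library at 39 °C at the full list lengths. The rule is looser there, and the share of all regions was not computed for that subset. With equal list lengths, 44 member regions were called in all 8 libraries, and 11 of them (25%) were higher at 37 °C and 5 (11.4%) at 39 °C, against 22.5% and 15.5% of all 41180. Ranked among the 44861 shared regions alone, a scale added after seeing the data, 10 member regions (20.8%) were higher at 37 °C and 8 (16.7%) at 39 °C, against 20.1% and 18.4% of all. The median difference (39 °C minus 37 °C) was -7.99 points for the members and -6.84 for all regions on the first scale, and -1.78 and -0.148 on the second. No region passed adjustment in the exact permutation test on the first scale (smallest adjusted p = 0.0520).

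On the scale of shared regions, limma on normal scores called 10 member regions higher at 37 °C and 8 higher at 39 °C at an adjusted p under 0.05, against 19.8% and 18.3% of all. Of these 18, 17 were among the 18 whose groups did not overlap, in the same direction. The region at the 3′ end of Ptgds was at 17.8, 23.3, 19.4 and 22.8 among shared regions at 37 °C and at 4.09, 4.07, 7.02 and 9.96 at 39 °C (limma, adjusted p = 0.00118). The intronic Cspg4 region at chr9:56876438-56878030 fell by 14.5 points (limma, adjusted p = 0.0111) and the intronic Mbp region at chr18:82531766-82532734 by 13.9 points (limma, adjusted p = 0.00741). These 3 were lower at 39 °C on both scales.

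In the other direction, the Aqp4 region at the internal start was at 44.9, 41.5, 40.8 and 42.4 at 37 °C and 46.6, 49.9, 47.6 and 50.2 at 39 °C among shared regions (limma, adjusted p = 0.0142, or 0.0514 with the replicate number as a block). The distal Olig1 region was at 1.74, 5.91, 3.28 and 6.63 and at 12.1, 9.62, 19.5 and 9.96 (limma, adjusted p = 0.0148, or 0.0432 with the block). Both were higher in every library at 39 °C on this scale, while their mean differences within the whole lists were -5.30 and -2.34 points with overlapping groups. Hence no direction is given for these regions. Among shared regions the groups overlapped at the Gfap-203 start, at the coding starts of Hdac11 and Cspg4, at the upstream Mbp start, at the Ptgds start and in the Mog region 5.54 kb upstream. They overlapped also at the Hdac11-207 start, at 20.8, 24.6, 20.8 and 12.0 at 37 °C against 5.39, 11.8, 2.05 and 17.6 at 39 °C (limma, adjusted p = 0.0840). The Cspg4 region beside the internal start Cspg4-203 was higher in every library at 37 °C, at 39.1, 45.7, 41.9 and 40.3 against 37.3, 32.4, 35.2 and 38.7 (limma, adjusted p = 0.0477, or 0.128 with the replicate number as a block).

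**Figure D4:**
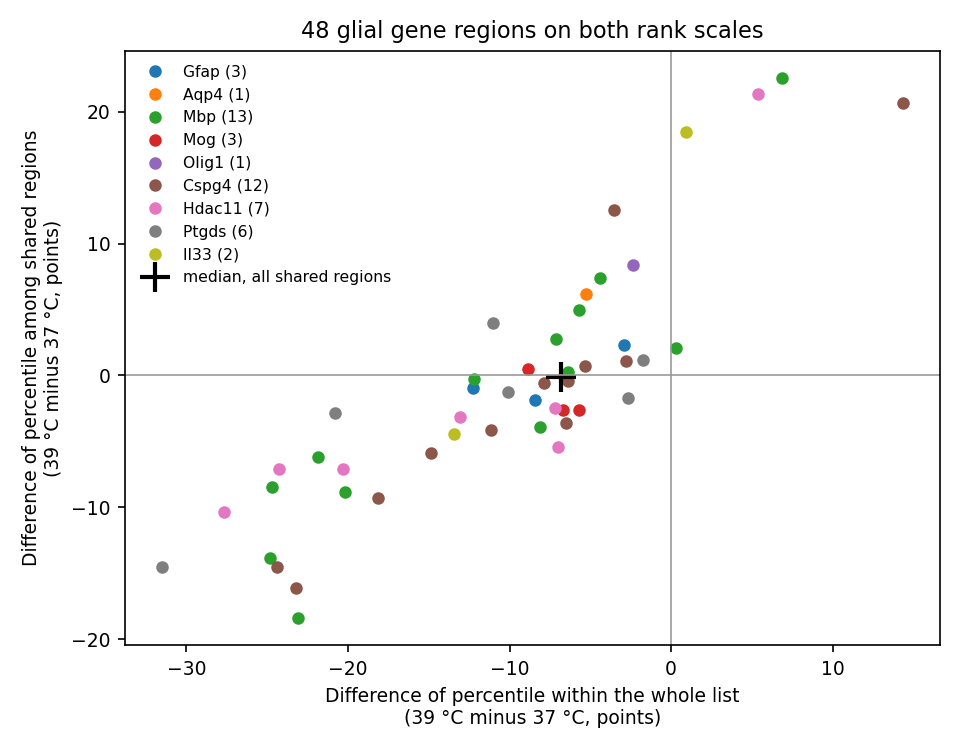
Difference of mean percentile (39 °C minus 37 °C, in points) of the 48 member regions called in all 8 libraries, ranked within each whole list (horizontal axis) and among the 44861 shared regions (vertical axis), coloured by gene with the number of regions in brackets. On the first scale 43 of the 48 differences were below 0 and on the second 30, and the cross marks the medians over all shared regions, -6.84 and -0.148.

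Peak width was compared in the same 48 regions. Of the 48 regions, 17 (35.4%) were wider in every library at 37 °C and 0 at 39 °C, against 24.1% and 0.74% of all shared regions. Without 37 °C replicate 3 the first count was 28 and without 39 °C replicate 1 it was 26. Among the libraries under 100 M fragments 3 regions were wider in every library at 39 °C. With fewer libraries both the calling of a region and the comparison are looser. The shares of all shared regions were not computed for these subsets. The median ratio of width (39 °C over 37 °C) was 0.753 for the members and 0.848 for all. Among the named regions the lowest ratios were those of the Gfap promoter peak, at 0.407, and of the region at the 3′ end of Ptgds, at 0.422. The smallest adjusted p of the exact permutation test was 0.115.

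To set the 9 genes beside other markers, promoter peaks were counted for 64 genes in 8 lists of cell type markers. A promoter peak was called in all 8 libraries for 33 of them and in none for 18. Fewer libraries called one at 39 °C for 12 genes and more for 0, with the background of 7.97% and 0.47% given above. Of 12 further astrocyte genes, 9 had a promoter peak in all 8 libraries, among them Slc1a3, a glutamate transporter, and Sox9, a glial transcription factor. Gjb6 had none. Aldoc, an astrocytic aldolase, had one in 4 libraries at 37 °C and 0 at 39 °C, and S100b, a calcium-binding protein, in 4 and 1.

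The lists of the oligodendrocyte lineage are small, and their counts were not tested against the 59.9% of all coding genes with a promoter peak in all 8 libraries or the 31.3% with none. Of 12 further oligodendrocyte genes, 7 had no promoter peak in any library, among them Mag and Mobp, which encode myelin proteins, and 5 had one in all 8, among them Myrf, the regulator of myelin genes, and Cnp. Of 8 precursor genes 3 had one in all 8, among them Pdgfra and Nkx2-2, and 4 had none, namely Olig2, Olig3, Gpr17 and Ptprz1. Sox10 had one in 4 libraries at 37 °C and 3 at 39 °C. The defining myelin genes Mog, Mag, Mobp, Cldn11, Opalin and Ermn thus had no promoter peak at either temperature.

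Markers of the labelled cell type and of others gave the following counts. Of 8 neural precursor genes 5 had a promoter peak in all 8 libraries, including Nes, Sox2 and Pax6, while Fabp7 had none. Of 6 neuronal genes 5 had one in all 8, as had 4 of 7 fibroblast genes, 1 of 6 microglial genes and 1 of 5 endothelial genes. Per library, 3 to 4 of the 6 microglial genes had a promoter peak at 37 °C, and 4, 4, 4 and 1 in replicates 1 to 4 at 39 °C. The endothelial Cldn5 and Kdr had one in 4 libraries at 37 °C and 0 at 39 °C. No list of another cell type had a gene with more libraries at 39 °C. The part of other cell types or of list length in the lower counts at 39 °C was not tested.

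**Figure D5:**
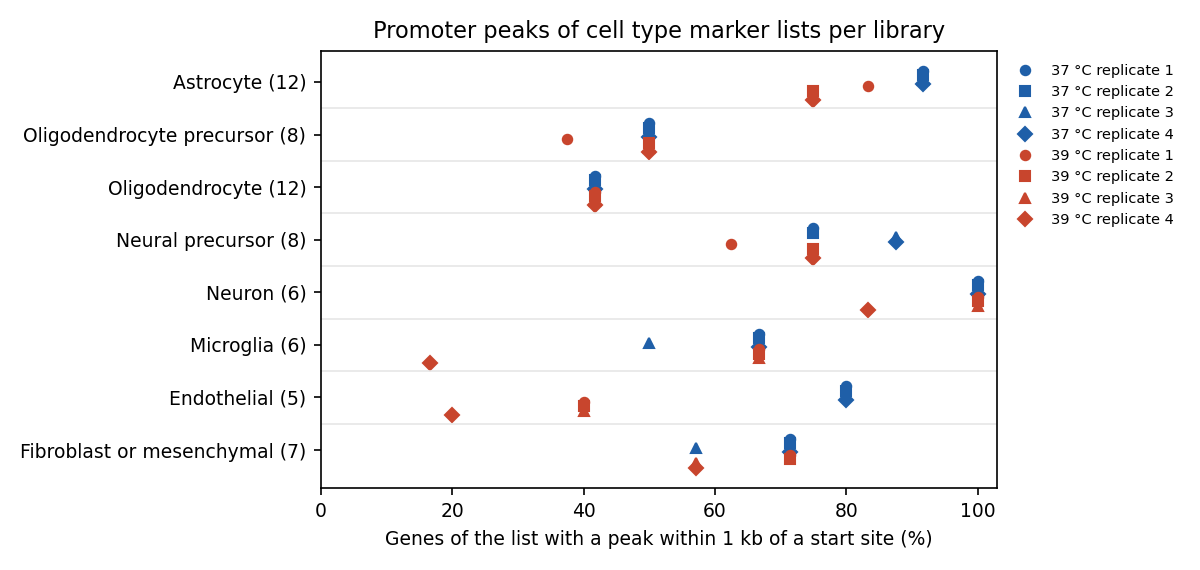
Percent of the genes of each marker list with a peak within 1 kb of a start site (horizontal axis), 1 point per library with 37 °C in blue and 39 °C in red and the number of genes in brackets. For the 12 oligodendrocyte genes all 8 libraries called 5, and for the 12 astrocyte genes 11 were called in each library at 37 °C and 9 or 10 at 39 °C.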

How the data were processed

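Peak lists of 8 ATAC-seq libraries, 4 at each temperature, were used. Per the labels, the authors aligned reads to mm10 (Bowtie2 2.4.1) and called peaks in each library (MACS3 3.0.0a7), with a q-value limit of 0.05 that the file headers give. SAMtools 1.15.1, Picard 2.26.11 and bedtools 2.30.0 are also listed in the submitters' processing notes. The deposited lists give each peak's position, length, summit, pileup signal in fragments, fold enrichment (a ratio to the library's background), and −log10 p-value and q-value. They hold no counts per region, and the heights were not scaled for depth, so only presence, width and rank within a list were compared. Between 49.8 and 169 M fragments per library remained after the caller's filter, which was taken as depth.

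Peaks of all libraries were merged at an overlap of 1 bp, and regions called in at least 2 libraries formed the consensus. A region's value in a library was that of its best peak. Start sites and gene bodies came from GENCODE M21, and positions count from 1. Promoter presence and restricted regions were tested by Fisher's exact test, and rank, summed width on the log2 scale and region number by the exact permutation test over all 70 assignments, two-sided, with Benjamini-Hochberg adjustment over all genes or regions. Normal scores were fitted with limma 3.58.1 (R 4.3.3). Python 3.11.15, pandas 2.3.3, scipy 1.17.1 and pysam 0.24.0 were used. The tests were tested on simulated data.

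The genes, marker lists and tests were chosen with earlier results of these data known. The oligodendrocyte marker list is given without 1 gene, which is not reported here. Regions were named by rule: those within 1 kb of a member's start site, those called in 4 of 4 libraries at one temperature and 0 of 4 at the other, and per gene the distal region of highest mean percentile and the separated region with the largest percentile difference. Regions outside this rule were chosen after their values were seen. They are the Gfap region near the 3′ end, the downstream Il33 region and the 4 regions of the closing observations. Alternatives were a −log10 q of at least 2 or 5, equal list lengths, 50% coverage of a region, a promoter distance of 5 kb, windows of 5 and 50 kb, each library left out, the 6 libraries under 100 M fragments, pileup rank, the replicate number as a block, limma, and rank among shared regions.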

Additional observations from a re-analysis of the deposited data

Results flagged for a closer look

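In 52 groups of 4 libraries, the number of regions called per window and the percentile of the named regions were searched for a library far from the other 3. Of these groups 7 had one. Chance gives about 1 in 20 groups for values without ties, but 4 of the 7 are whole-number counts in which the other 3 libraries were tied, so that rate does not apply to them. Replicate 4 at 39 °C, the library with the shortest list, accounted for 4 of the 7 groups. It called 3 regions in the Gfap window, where the others called 6 each, and 12 in the Cspg4 window, where the others called 15 each. Its percentile at the Cspg4 start was 54.5, against 66.2 to 66.8, and at the strongest distal Hdac11 region 77.6, against 84.3 to 85.4. Replicate 3 at 39 °C called 8 regions in the Hdac11 window, where the others called 7 each. At 37 °C, replicate 1 called 6 regions in the Il33 window, where the others called 5 each. Replicate 4 at 37 °C had a percentile of 55.6 at the upstream Mbp start, against 48.5 to 49.3.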

How the results depend on the processing

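For the glial windows the main counts were 1 promoter and 8 regions called in all libraries at 37 °C and none at 39 °C, 0 regions called the other way round, 33 and 0 ranks and 17 and 0 widths higher in every library at 37 °C and at 39 °C, and 6 and 0 windows lower and higher at 39 °C. With −log10 q of at least 5 these were 0 promoters, 3 regions and 2 windows. With equal list lengths they were 0 promoters, 3 regions at 37 °C, 2 at 39 °C, 11 and 5 ranks, and 2 windows. Asking for 50% coverage gave 14 restricted regions and windows of 50 kb gave 13. Among the 6 libraries under 100 M fragments, where the rules are looser, 1 region was restricted to 39 °C, and 3 ranks and 3 widths were higher there. Shares over all regions were not computed for that subset. Ranks numbered 10 and 8 by limma, 8 and 5 by limma with the replicate block, and 10 and 8 by percentile among shared regions.

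Leaving out 1 library gave 8 to 13 regions restricted to 37 °C (13 without 37 °C replicate 3). It gave 0 to 1 restricted to 39 °C (1 without 37 °C replicate 1). Widths larger at 37 °C numbered 17 to 28 (28 without 37 °C replicate 3 and 26 without 39 °C replicate 1). Ranks numbered 33 to 41 higher at 37 °C and 0 to 2 at 39 °C (2 without 39 °C replicate 4). With fewer libraries each of these rules is looser, so such counts could hardly fall below the main ones. Shares over all regions were not computed with a library left out. The same replicate numbers did not pair the libraries, as the deviations of libraries with the same number correlated at 0.120, -0.0644, 0.0760 and -0.0576. With the replicate block by exact sign flips, 0 ranks, 0 widths and 0 windows passed, since the smallest p that 4 pairs allow is 0.125.

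Single differences (39 °C minus 37 °C) that changed sign were, at equal lengths, 0.5 regions in the Olig1 and Cspg4 windows and, in percentile points, 4.57 at the Aqp4 promoter, 4.04 at the Ptgds promoter and 0.770 at the distal Cspg4 region. Among shared regions they were 8.41 at the distal Olig1 region, 0.511 at the downstream Mog region, 6.18 at the Aqp4 promoter, 4.00 at the Ptgds promoter and 1.13 at the distal Cspg4 region. In the libraries under 100 M fragments they were 0.5 regions in the Aqp4 window and 3.05 points at the distal Olig1 region. With 1 library left out they were 0.333 regions in the Aqp4 window without 37 °C replicate 1 (range -0.667 to 0.333), -0.0625 and -0.114 points at the strongest Mbp region without 37 °C replicates 2 and 3 (range -0.114 to 0.736), and 2.09 and 2.15 points at the distal Olig1 region without replicate 4 of either temperature (range -6.22 to 2.15). Of the values for single genes and regions, 601 stayed on their side of the threshold with no change of sign, though 11 of these went to 0 and 15 left 0, 104 no longer passed, 3 now passed and these 17 changed sign. Among the 6 libraries under 100 M fragments neither Fisher's exact test nor the permutation test can pass that threshold. Part of the 104 was therefore fixed by the design. The causes of the other changes were not tested. The lists hold peaks past the caller's threshold alone, so a region with no peak is one not called at this depth.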

Other observations

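Of the 48 member regions called in all 8 libraries, 4 ranked higher in every library at 39 °C among shared regions and had a positive mean difference within the whole lists too, where their groups overlapped. They were chosen after their values were seen, by the same ranks that limma was fitted to, so its p-values are no independent support. On the shared scale alone 8 member regions (16.7%) were higher in every library at 39 °C, against 18.4% of all. The share of all regions with both traits was not computed. An intronic Mbp region (chr18:82508210-82509726) was at 9.60, 12.2, 6.06 and 6.27 among shared regions at 37 °C and at 27.6, 30.3, 36.5 and 30.0 at 39 °C (limma, adjusted p = 0.00031). A region 9.18 kb upstream of Hdac11 (chr6:91145632-91148068) was at 43.1, 33.2, 27.7 and 38.4 and at 55.7, 57.4, 56.6 and 58.0 (limma, adjusted p = 0.00144). An intronic Il33 region 5.40 kb from the start (chr19:29930045-29930836) was at 12.5, 12.7, 22.9 and 18.6 and at 38.2, 39.5, 37.4 and 25.5 (limma, adjusted p = 0.00545). The last, downstream of Cspg4 and inside Snx33 (chr9:56918449-56919507), was at 1.63, 1.31, 4.31 and 1.33 and at 24.3, 27.8, 18.9 and 20.1 (limma, adjusted p = 0.000169). At equal list lengths, all 4 libraries at 39 °C and none at 37 °C called this region.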
